A study of Homo sapiens with 3 samples.

Results

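The 5 genes that encode the subunits of IL-12, IL-23 and their nearest relatives were followed in activated macrophages: IL23A, IL12A, IL12B, EBI3 and IL27. They were chosen by name, and each was read by 1 probe with 1 spot, so 5 of the 58201 transcript probes on the array belonged to them. The cells were THP-1, a human monocytic leukemia line, differentiated into macrophages with the phorbol ester PMA (100 ng/ml for 24 to 36 h, then overnight in fresh medium), a step that all groups share. Ctrl macrophages received no further treatment named in the labels. IMQ macrophages received imiquimod, a ligand of toll-like receptor 7 that provokes psoriasis-like inflammation on skin. IMQ+DMD macrophages were treated beforehand with DMD, a benzenoid of the fungus Antrodia cinnamomea, and then with IMQ. The label of the last group writes X for the compound, which was read as DMD because the labels name no other compound beside IMQ and PMA. All arrays are labelled 4 h, the labels give no dose, and the methods of the study describe a longer incubation with IMQ for its THP-1 experiments in general. The groups served to ask how IMQ changes the macrophage transcriptome and how DMD alters that change.

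IL-12 and its relatives are secreted pairs, each made of a helical alpha chain and a beta chain that resembles a soluble cytokine receptor. IL-12 joins p35 (gene IL12A) to p40 (gene IL12B), IL-23 joins p19 (IL23A) to the same p40, IL-27 joins p28 (IL27) to EBI3, and IL-35 joins p35 to EBI3. Macrophages and dendritic cells release IL-12 to drive interferon-gamma responses of T and NK cells and IL-23 to sustain T cells that make IL-17, and antibodies against p19 and p40 are used to treat psoriasis.

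The sequences that read the subunits are shown first, because every value below is the Cy3 fluorescence of RNA captured by 1 of these probes of 60 bases. For each probe 30 bases are given, 5′ to 3′, with the motif ATTTA in capitals, the core of AU-rich elements that mark many cytokine mRNAs for rapid decay.
IL23A: tggggacagtttggggaggattATTTAttg
IL12A: cccttgaagaaccggatttttataaaacta
IL12B: caatgcaaacctgttgagaagatccaggag
EBI3: tctagctgagaaatggagatgtactactct
IL27: atgatggtttATTTAttgtcttggggcccg
The array design places the IL23A probe (NM_016584) at chr12:56734083-56734142 on the plus strand of hg19, the IL12A probe (NM_000882) at chr3:159713231-159713290 on the plus strand and the IL12B probe (NM_002187) at chr5:158742525-158742584 on the minus strand. The EBI3 probe (NM_005755) lies at chr19:4237260-4237319 on the plus strand and the IL27 probe (NM_145659) at chr16:28510710-28510769 on the minus strand. Which exon or which part of the mRNA each one covers was not assigned here. The whole IL23A probe held 2 copies of ATTTA and the IL27 probe held 1, while the probes of IL12A, IL12B and EBI3 held 0. Of all transcript probes, 7.73% held the motif and 0.491% held at least 2 copies.

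Each condition was measured on 1 array, and the 3 arrays lay on 1 slide, so no difference below has a replicate check and no p-value was computed. The scanner software rated between 66.6% and 72.0% of the probes well above background, and no spot was saturated. The only error available is the SD between the spots of probes that were printed 10 times, taken at the brightness of each subunit. It covers noise within an array and leaves out the spread between cultures, labelings and arrays. Of the 9 macrophage and monocyte markers, 7 had a probe under that symbol and all 7 were well above background, among them CSF1R (log2 17.78 in Ctrl) and SPI1 (14.14). Markers of other cells also gave signal, with 6 of 7 T and NK cell, 3 of 3 B cell, 3 of 4 dendritic cell and 2 of 2 keratinocyte markers well above background on at least 1 array. KLRD1 and CLEC9A were not well above background on any array, and the markers that passed 2-fold after IMQ were NCAM1 (3.08), CD163 (-1.22), CD1C (-1.26) and FLT3 (-1.89). The median of the T and NK cell markers was -0.06, with 4 of 6 below 0, that of the macrophage markers -0.51 and that of the dendritic cell markers -1.26. The part of other cells in the subunit values was not tested.

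IL23A, the alpha chain particular to IL-23, responded most. Its normalized intensity was 405 in Ctrl, 24059.9 in IMQ and 12679 in IMQ+DMD macrophages. On the log2 scale these levels were 8.66 ± 0.07 in Ctrl, 14.55 ± 0.04 in IMQ and 13.63 ± 0.04 in IMQ+DMD macrophages (SD between repeat spots of like brightness). The order was therefore Ctrl, IMQ+DMD and IMQ, and each step exceeded the noise between spots. The spots themselves were even. The SD of the pixels was 8.84%, 5.82% and 5.28% of their mean in Ctrl, IMQ and IMQ+DMD, below the medians of 12.4%, 9.87% and 9.96% among spots of like brightness, and no spot of the 5 probes carried an outlier mark.

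EBI3, the beta chain of IL-27 and IL-35, was already bright in Ctrl macrophages. Its normalized intensity was 2407 in Ctrl, 14230 in IMQ and 12702 in IMQ+DMD macrophages. The log2 levels were 11.23 ± 0.05, 13.80 ± 0.04 and 13.63 ± 0.04, so both treated arrays stood apart from Ctrl and close to each other.

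IL27, the p28 chain that pairs with EBI3, was dim but well above background on all 3 arrays. Its normalized intensity was 89.9 in Ctrl, 120 in IMQ and 160 in IMQ+DMD macrophages. The log2 levels were 6.49 ± 0.17, 6.91 ± 0.17 and 7.32 ± 0.10, a shallow ascent in which IMQ stood above Ctrl by 1.77 times, and IMQ+DMD above IMQ by 2.15 times, the combined noise of the arrays.

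IL12A and IL12B, the p35 and p40 chains of IL-12, were not well above background on any array. IL12A read 15.7 in Ctrl, 8.78 in IMQ and 6.96 in IMQ+DMD macrophages. IL12B, which IL-23 needs as well, read 15.1 in Ctrl, 19.8 in IMQ and 14.7 in IMQ+DMD macrophages. All 6 readings lay below the dimmest probe rated well above background on the same array, which had a normalized intensity of 16.5 in Ctrl, 23.8 in IMQ and 16.9 in IMQ+DMD macrophages. Repeat spots this dim had a median SD of 0.28 to 0.48 log2 units, by range of brightness. A reading below that limit is only a bound, so the readings are given no order and no fold change. The values do not show that either transcript was absent. They show that neither probe gave a level at 4 h under any of the conditions.

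**Figure D1:**
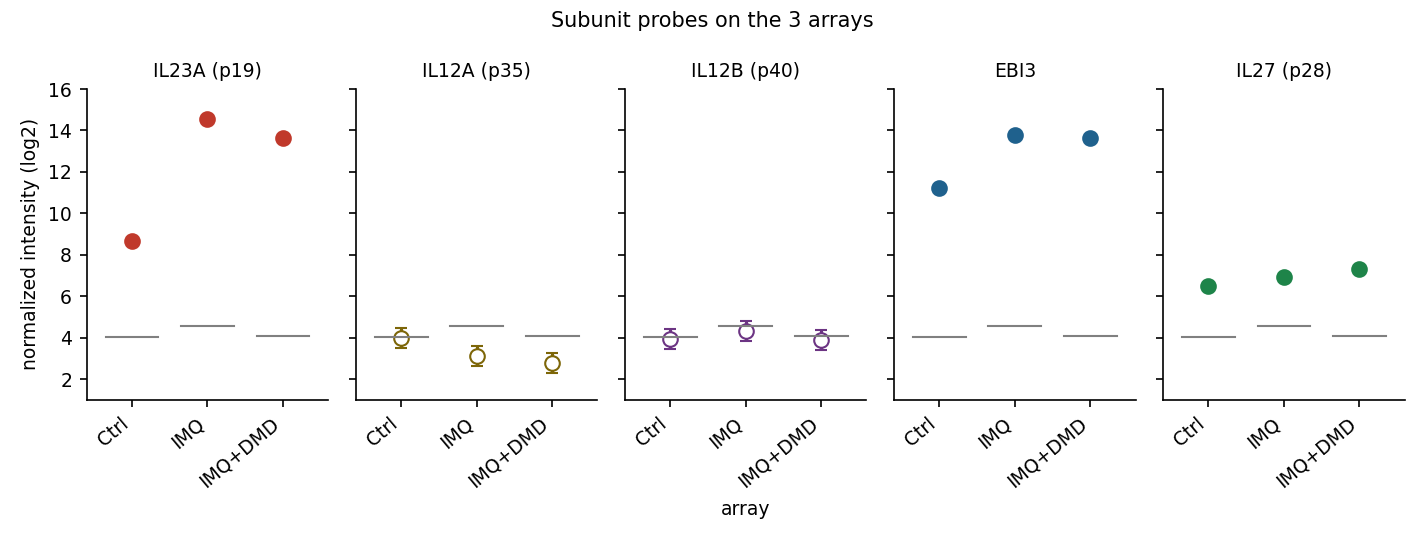
Normalized intensity (log2, vertical axis) of the 5 subunit probes on the Ctrl, IMQ and IMQ+DMD arrays, with error bars for the SD between repeat spots of like brightness (smaller than the points for the brighter probes). Filled points were well above background, hollow points were not, and grey bars mark the dimmest probe rated well above background on that array (log2 4.04, 4.57 and 4.08). IL23A and EBI3 are higher on both treated arrays than in Ctrl, and IL12A and IL12B stay below the grey bars. Levels of different probes cannot be set against each other.

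Against Ctrl, 2 of the 3 subunits that could be measured were at least 2-fold higher after IMQ. Of all 41104 probes measured in this comparison, 4.31% were at least 2-fold higher and 3.48% at least 2-fold lower (1771 and 1431 probes, but 1517 and 1923 with 75th percentile scaling, 730 and 6668 unnormalized, and 660 and 8031 with spike-in scaling). IL23A was 5.89 ± 0.08 log2 units higher (59.4-fold, SD between repeat spots combined over both arrays). This was the 11th largest rise of any probe. The 10 probes above it read CXCL2, with 2 probes, CXCL1, CXCL3, CXCL8, CCL20 and CCL4L2, which encode chemokines, CCR7, a chemokine receptor, and TNFAIP6 and GRASP. EBI3 rose by 2.56 ± 0.06 log2 units (5.91-fold) and ranked 183 from the top. IL27 differed by 0.42 ± 0.24 (1.33-fold), 1.77 times its noise, and its sign turned with unnormalized intensities (-0.15) and with scaling to spike-in controls (-0.22). In RNA pooled from a culture, fewer cells that make a transcript and less transcript per cell cannot be told apart.

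In IMQ+DMD macrophages none of the 3 measured subunits was 2-fold away from IMQ. Of 40825 probes, 1.09% were at least 2-fold higher and 1.31% at least 2-fold lower (445 and 533 probes, but 1306 and 272, 1682 and 231, and 2728 and 168 under the same 3 alternatives). IL23A came nearest, with a log2 difference of -0.92 ± 0.06 (1.90-fold lower), and 1.70% of the probes had a lower value. That difference was 15.5 times the noise between spots, and it lay past 2-fold after 75th percentile scaling (-1.12) and with unnormalized intensities (-1.06). EBI3 differed by -0.16 ± 0.06 (1.12-fold lower), inside the range of -0.20 to 0.18 that held the middle 50% of all probes. With 75th percentile scaling EBI3 was at -0.38, and with unnormalized intensities at -0.31. IL27 lay on the other side, at 0.42 ± 0.19 (1.34-fold higher), higher than 88.9% of the probes.

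Compared with Ctrl, IMQ+DMD macrophages still held IL23A 4.97 ± 0.08 log2 units higher (31.3-fold, the 18th largest rise of 43689 probes) and EBI3 2.40 ± 0.06 higher (5.28-fold, rank 163). IL27 was 0.83 ± 0.19 higher (1.78-fold), which is 4.29 times its noise, but 0.50 with unnormalized intensities, 0.55 with normexp background correction and 0.56 with spike-in scaling. Over all probes, 3.09% were at least 2-fold higher and 4.91% at least 2-fold lower in this comparison (1348 and 2145 probes, but 672 and 4510 unnormalized, and 754 and 3927 with spike-in scaling). On the log2 scale, 84.3% of the IMQ rise of IL23A and 93.6% of that of EBI3 remained in IMQ+DMD macrophages. The same share had a median of 75.7% over the 1771 probes that IMQ raised at least 2-fold and of 93.4% over the 26 probes raised by at least 5 log2 units, so IL23A lay above the first median and below that of the probes raised as far as itself. The bound of 5 log2 units was set after the rise of IL23A had been seen. These shares use the same Ctrl and IMQ arrays as the comparisons above and are no separate evidence.

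The size of the IL23A difference after DMD can be set beside other transcripts that IMQ raised. Among the 1771 raised probes, 84.8% had a difference below 0 in IMQ+DMD against IMQ, with a median of -0.39, and the 26 probes raised by at least 5 log2 units had a median of -0.38. Of the 1771 probes, 378 (21.3%) had a lower value than IL23A and 1243 (70.2%) a lower value than EBI3. The 10 probes with a larger IMQ rise than IL23A ranged from -1.05 for GRASP to 0.09 for CXCL8, and GRASP was the 1 probe among them with a lower value than IL23A. All of these differences share the IMQ array, and the contribution of that array to them was not tested.

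**Figure D2:**
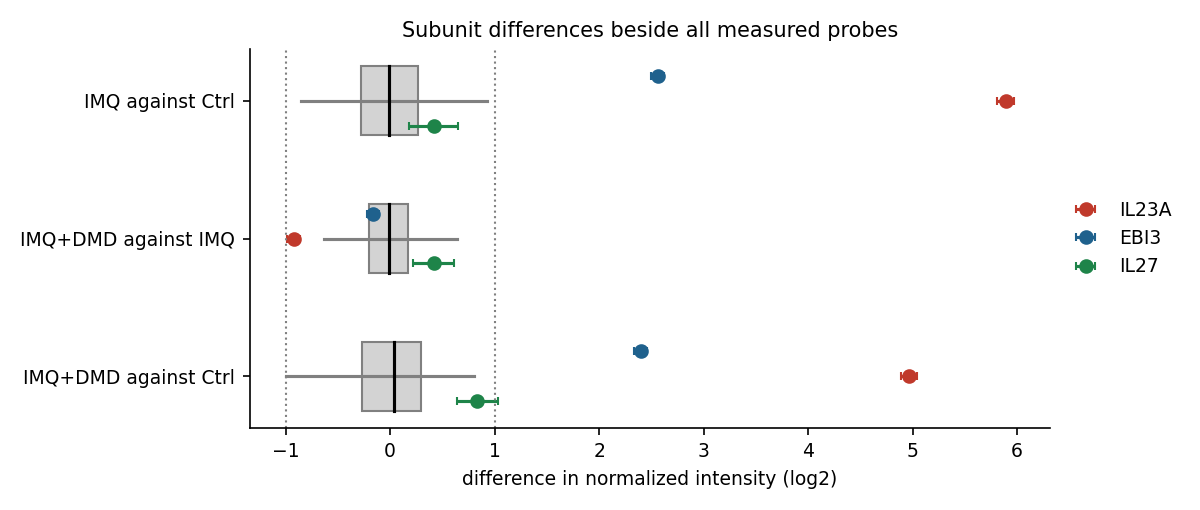
Differences in normalized intensity (log2, horizontal axis) of IL23A, EBI3 and IL27 in the 3 comparisons, with error bars for the SD between repeat spots combined over the arrays compared. Grey boxes span the middle 50% of all probes measured, grey lines run from the 5th to the 95th percentile, black bars mark the median and dotted lines mark 2-fold. IL23A (5.89 and 4.97) and EBI3 (2.56 and 2.40) lie far to the right in both comparisons with Ctrl, and in IMQ+DMD against IMQ IL23A (-0.92) lies left of the grey line.

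Both chains could be measured for 1 of the 4 pairs, IL-27. Under IMQ, IL27 changed by 2.15 log2 units less than its partner EBI3 (difference of differences -2.15 ± 0.24). In IMQ+DMD against IMQ the order was the other way, with IL27 0.58 ± 0.20 above EBI3, or 0.96 above it without quantile normalization. Between IMQ+DMD and Ctrl the value was -1.57 ± 0.20. For IL-23, p19 rose 59.4-fold while the p40 probe was not well above background on any array. For IL-12 neither chain gave a level, and for IL-35 EBI3 rose while p35 gave no level.

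Among 18375 genes well above background on all arrays, those with the pattern most like IL23A, by the distance between the pairs of log2 differences (IMQ against Ctrl and IMQ+DMD against IMQ), were GRASP (distance 0.21), CCL20 (0.28), CCL4L2 (0.49), IDO1 (0.62) and NR4A3 (0.65). CCL20 is a chemokine that attracts T cells carrying CCR6, and IDO1 breaks down tryptophan. Nearest to EBI3 were ANKRD33B (0.07), REL (0.07), TRAF1 (0.09), ETS2 (0.10) and CREM (0.13). REL is a subunit of the transcription factor NF-κB, and its log2 differences of 2.57 and -0.23 stood beside 2.56 and -0.16 for EBI3. IL27 had SCGB2B3P (0.02), ZNF746 (0.02), ZNF767P (0.05), NOX5 (0.05) and OR12D2 (0.06) nearest. The IL27 distances are smaller than the noise of IL27 itself (0.24 in IMQ against Ctrl, 0.19 in IMQ+DMD against IMQ). Genes farther off may therefore be as alike to IL27. For EBI3, the distances of ANKRD33B and REL (0.07 each) are close to its own noise of 0.06 in each of these comparisons. Likeness here rests on 3 arrays that are shared by all genes.

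The transcription factors known to act at subunit genes moved with IMQ in part. Of 22 measured factors, 10 were at least 2-fold higher and 2 at least 2-fold lower, beside 4.31% and 3.48% of all probes. Their median was 0.71 against -0.01 over all probes. BCL3, which binds NF-κB p50 and p52, rose by 3.96, CEBPB, a C/EBP factor, by 3.04, REL by 2.57, NFKBIZ, a nuclear partner of NF-κB, by 2.44 and RELB by 1.84. IRF8, a factor needed for IL12B transcription in macrophages, fell by 1.15 log2 units, and BATF, an AP-1 family member, fell by 1.07. RELA differed by 0.21 and SPI1, which encodes PU.1, by 0.04. In IMQ+DMD against IMQ 0 of the 22 passed 2-fold in either direction, near the shares of 1.09% higher and 1.31% lower over all probes. The median was 0.01, and the values ran from -0.62 for NFKBIZ to 0.51 for ATF3.

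Most genes that restrain these cytokines or feed back on toll-like receptor signaling rose after IMQ, as IL23A and EBI3 did. Of 8, 7 were at least 2-fold higher after IMQ (4.31% of all probes were), with a median of 2.78. SOCS3, an inhibitor of cytokine receptor signaling, rose by 5.43, and DUSP1, a MAPK phosphatase, by 3.65. NFKBIA, the inhibitor of NF-κB, rose by 3.54, IL10, an anti-inflammatory cytokine that lowers IL-12 and IL-23 production, by 2.80 and ZC3H12A, an RNase that cleaves cytokine mRNAs, by 2.77. ZFP36, which binds AU-rich elements and speeds mRNA decay, rose by 1.32, and SOCS1 differed by -0.36. In IMQ+DMD against IMQ 0 of 8 passed 2-fold, near the shares over all probes (1.09% higher, 1.31% lower), and the median was -0.15.

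The receptors and signal carriers through which these cytokines act mostly stayed within 2-fold of Ctrl. Of 11 genes, 10 could be measured, and 1 was at least 2-fold higher after IMQ (4.31% of all probes were), with a median of 0.00. That gene was STAT4, the main signal carrier of IL-12, which rose by 4.73 with 1 probe and by at least 3.91 with the other, a lower bound because that probe was not well above background in Ctrl. IL12RB2, the signaling chain of the IL-12 receptor, differed by -0.92 and JAK2 by -0.72. IL23R was not well above background on the IMQ array and gave no value there. In IMQ+DMD against IMQ 0 of the 10 passed 2-fold, near the shares over all probes (1.09% higher, 1.31% lower), and STAT4 differed by -0.39.

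Most cytokines of the related IL-6 group rose after IMQ. Of 8 genes, 6 were at least 2-fold higher after IMQ (4.31% of all probes were), with a median of 2.66. IL11 rose by 4.86, CSF3, which drives neutrophil production, by 4.35 and IL6 by 2.95. OSM rose by 4.83 with its brighter probe and differed by 0.31 with the other, and the other IL6 probe was not well above background on any array. After DMD 8 of 8 values lay below 0, with a median of -0.47, although CNTF differed by less than its noise, and the dimmer probes of LIF and OSM were at 0.04 and -0.14. Of the 1771 probes that IMQ raised at least 2-fold, 84.8% likewise lay below 0 in IMQ+DMD against IMQ, with a median of -0.39. In this comparison 1 gene of the IL-6 group, CSF3, passed 2-fold with a log2 difference of -1.35, beside 1.31% of all probes at least 2-fold lower. OSM differed by -0.88 and IL6 by -0.64, beside -0.92 for IL23A. Among products of the lymphocytes that respond to IL-12 and IL-23, IFNG and IL22 were not well above background on any array. IL17A, IL17F and TBX21 were well above background on all 3 arrays, with log2 levels of 7.59, 6.14 and 6.53 in Ctrl. Of these 3 genes, 0 passed 2-fold after IMQ or between IMQ+DMD and IMQ, a count near the shares over all probes.

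**Figure D3:**
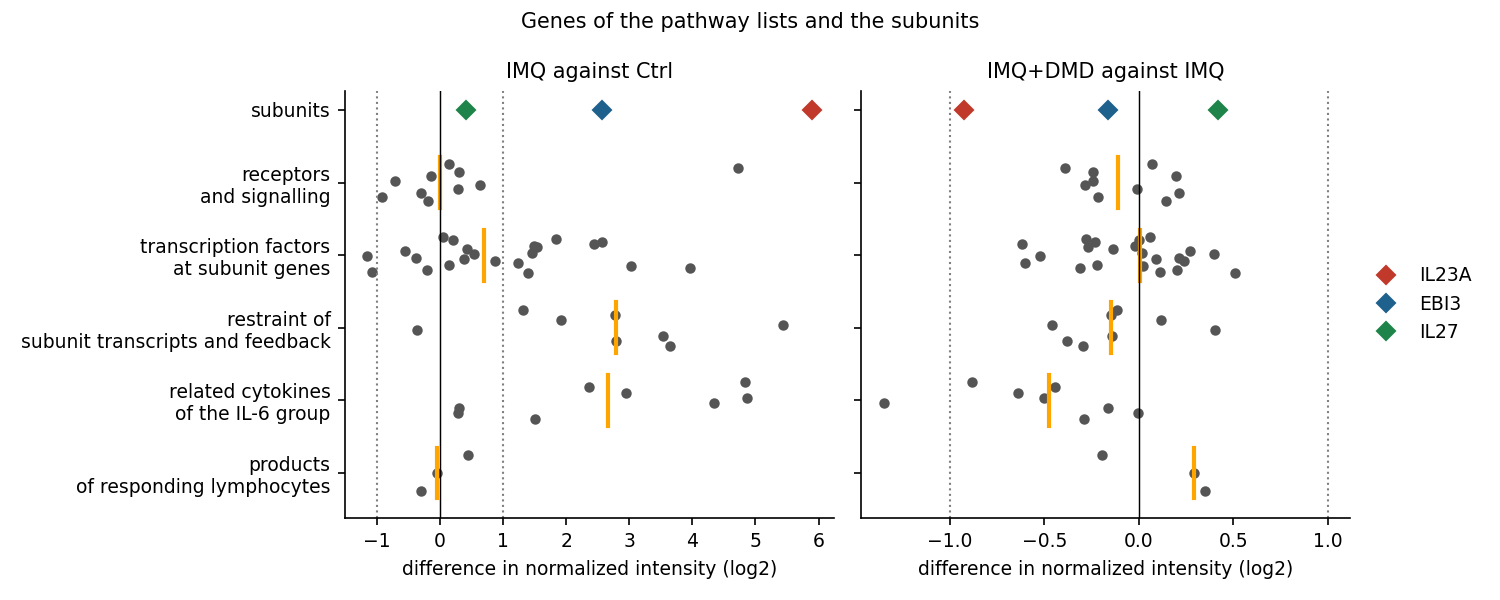
Differences in normalized intensity (log2, horizontal axes, scaled separately) for IMQ against Ctrl (left) and IMQ+DMD against IMQ (right), with 1 grey point per measured gene, orange bars for the median of each list, diamonds for the 3 measured subunits and dotted lines for 2-fold. On the left the lists of restraint genes (median 2.78) and of IL-6 related cytokines (2.66) lie close to EBI3 (2.56). On the right IL23A lies at -0.92, and CSF3 (-1.35) is the list gene past 2-fold.

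The stretches just upstream of the IL23A and EBI3 transcripts are shown because these are the 2 subunit genes that rose. They are the 250 bases before the transcript start in RefSeq (GRCh38.p14), 5′ to 3′ along the gene, with matches to the kappaB and AP-1 motifs in capitals.
IL23A: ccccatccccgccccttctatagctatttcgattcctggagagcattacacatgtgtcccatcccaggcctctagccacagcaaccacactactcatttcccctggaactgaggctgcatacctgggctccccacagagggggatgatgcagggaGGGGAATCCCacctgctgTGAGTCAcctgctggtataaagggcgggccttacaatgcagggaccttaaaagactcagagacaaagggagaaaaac
EBI3: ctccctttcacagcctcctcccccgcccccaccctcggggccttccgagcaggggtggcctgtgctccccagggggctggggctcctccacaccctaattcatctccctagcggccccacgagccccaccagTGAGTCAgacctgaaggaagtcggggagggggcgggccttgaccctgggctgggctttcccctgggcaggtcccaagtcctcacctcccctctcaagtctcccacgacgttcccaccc
The IL23A stretch is chr12:56338634-56338883 on the plus strand and the EBI3 stretch chr19:4229273-4229522 on the plus strand. In IL23A a kappaB match lies 95 to 86 bases before the start and an AP-1 match (TGANTCA) 77 to 71 bases before it. EBI3 has the same AP-1 heptamer 118 to 112 bases before its start and no kappaB match in this window. Among 35116 promoters searched on both strands over the same length, 5.21% held a kappaB match and 6.57% an AP-1 match.

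The promoters of the other subunits were searched in the same way. IL12A has a kappaB match 44 to 35 bases before its start, and IL12B has a match to the PU.1 core (GAGGAA, present in 23.6% of promoters) 212 to 207 bases before its start. Of the 4 subunit promoters in the table, 0 held the ISRE-like motif GAAANNGAA (6.88% of promoters) or the C/EBP motif TTNNGNAA (33.2%). IL27 was not among the sequences matched. A match to these letters is a description of the sequence and does not show that a factor binds there.

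**Figure D4:**
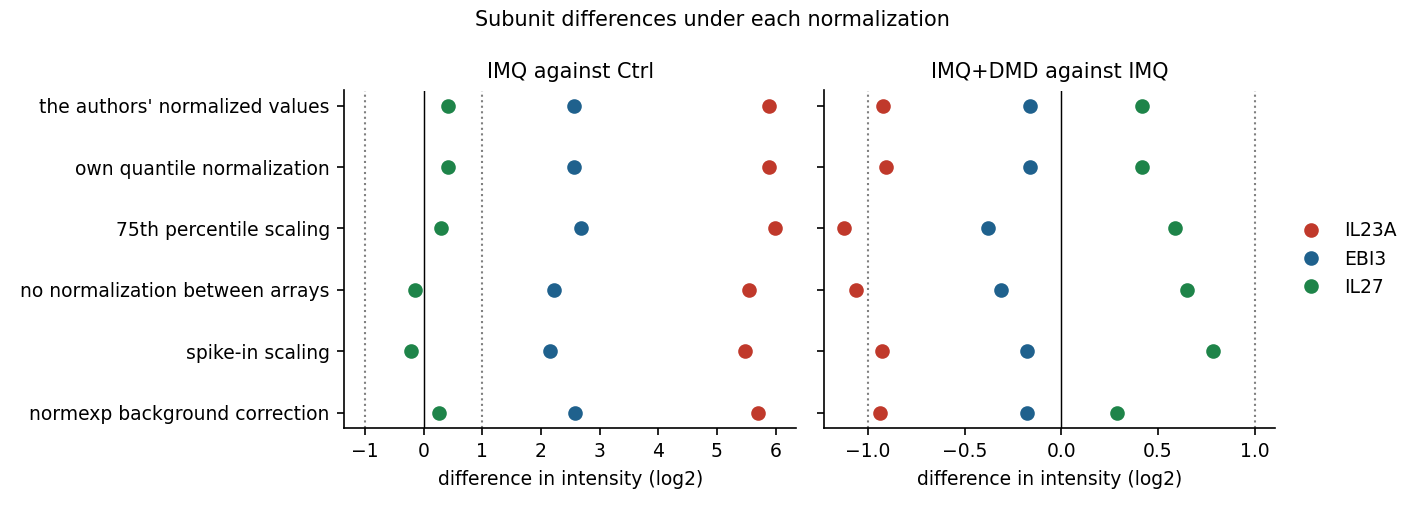
Differences in intensity (log2, horizontal axes, scaled separately) of IL23A, EBI3 and IL27 under the normalized values of the authors and 5 alternatives, for IMQ against Ctrl (left) and IMQ+DMD against IMQ (right), with dotted lines for 2-fold. IL23A and EBI3 keep their side of 0 in both panels, IL23A lies on either side of -1 in the right panel (-0.91 to -1.12), and IL27 crosses 0 in the left panel.

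The normalization between arrays turned the sign of the dim IL27 probe in IMQ against Ctrl and decided whether IL23A passed 2-fold in IMQ+DMD against IMQ, as the plot of the settings shows. IL23A after IMQ ranged from 5.48 to 6.0 and EBI3 from 2.16 to 2.68 over all settings. For IMQ+DMD against IMQ, IL23A ranged from -0.91 to -1.12, EBI3 from -0.16 to -0.38 and IL27 from 0.29 to 0.78. The median of the 37611 probes well above background on all arrays shifted by -0.49 in IMQ against Ctrl without normalization and by -0.56 with spike-in scaling, so the IL27 values of -0.15 and -0.22 lay above that shift.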

How the data were processed

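Total RNA of Ctrl, IMQ and IMQ+DMD THP-1 macrophages was amplified, labeled with Cy3 and hybridized to one-color arrays, 1 array per condition. The authors deposited 1 scanner output per array and a series table of raw and quantile-normalized intensities by probe. The scanner output names Feature Extraction 10.5.1.1 in its header. The deposited normalized intensity was used here as log2 values. All 57901 single-spot probes had raw values within 0.1% of the scanner output. The number of columns of sample intensities left unused was 0. The rating well above background came from the scanner output and not from the detection calls of the series table.

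Each array has a floor, the lowest value of any probe rated well above background, and a probe below that rating was raised to the floor unless its own value exceeded it. A comparison required that the brighter array rated the probe well above background. Differences were called at 2-fold. A gene with several probes was read from the one with the highest mean log2 value. The noise came from 300 probes with 10 spots. For genes most like a subunit, the 5 with the smallest Euclidean distance were named, and the other genes named belong to the lists of transcription factors, restraint, receptors, IL-6 related cytokines, lymphocyte products and cell markers, or rank above IL23A. A gene of the lymphocyte list is not reported here. The members, lists and tests were chosen with earlier results of these data known. The steps were tested on simulated data. Python 3.11.15, numpy 2.4.6, pandas 2.3.3, R 4.3.3, limma 3.58.1 and matplotlib 3.10.9 were used. Tried in place of these settings were 75th percentile scaling, unnormalized intensities, spike-in scaling (8 probes), a repeated quantile normalization, normexp background correction with an offset of 50, no floor, thresholds of 1.5-fold and 4-fold and the mean of all probes of a gene. Promoter sequences are from RefSeq, and probe sequences and positions from the scanner output. The number of arrays limits the precision.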

Additional observations from a re-analysis of the deposited data

How the results depend on the processing

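No paired analysis was possible because each condition had 1 array. The log2 differences of the subunits kept their direction in 52 of 54 values under 6 alternatives, the exceptions being IL27 in IMQ against Ctrl from unnormalized intensities (-0.15) and under spike-in scaling (-0.22). Removing the floor could not change these values, because IL23A, EBI3 and IL27 were well above background on all arrays. The repeated quantile normalization followed the method of the authors (median absolute log2 difference of at most 0.00145), so its values are no separate check. IL23A in IMQ against Ctrl was 6.0 with 75th percentile scaling, 5.55 without normalization, 5.48 with spike-in scaling and 5.69 with normexp, and EBI3 was 2.68, 2.23 and 2.16 under the first 3 of these. In IMQ+DMD against IMQ, the 75th percentile gave -1.12 for IL23A and -0.38 for EBI3, and no normalization gave -1.06 and -0.31, while IL27 was 0.65 unnormalized and 0.78 under spike-in scaling. In IMQ+DMD against Ctrl, IL23A was 4.88, 4.49, 4.55 and 4.76 with the 75th percentile, no normalization, spike-in scaling and normexp, EBI3 was 2.30, 1.92 and 1.98 with the first 3, and IL27 was 0.50, 0.56 and 0.55 with the last 3. IL27 minus EBI3 was -1.86 in IMQ+DMD against Ctrl with normexp. In IMQ+DMD against IMQ it was 0.96 with the 75th percentile, without normalization and with spike-in scaling. These 3 settings differ by 1 constant per array, which cancels between 2 probes, so they give 1 value and not 3. The cause of the shifts between settings was not tested.

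Counts over all probes depended strongly on the setting. For IMQ against Ctrl, higher and lower probes numbered 4601 and 4338 at 1.5-fold, 366 and 135 at 4-fold, 1517 and 1923 with the 75th percentile (against 1771 and 1431), 730 and 6668 from unnormalized intensities, 660 and 8031 with spike-in scaling, 728 and 717 with normexp, and 3751 and 3853 without a floor. For IMQ+DMD against IMQ they numbered 2548 and 2440 at 1.5-fold, 6 and 40 at 4-fold, 1306 and 272 with the 75th percentile, 1682 and 231 from unnormalized intensities, 2728 and 168 with spike-in scaling, 22 and 38 with normexp, and 2491 and 2229 without a floor. For IMQ+DMD against Ctrl they numbered 4270 and 5206 at 1.5-fold, 269 and 278 at 4-fold, 1469 and 2039 with the 75th percentile, 672 and 4510 from unnormalized intensities, 754 and 3927 with spike-in scaling, 646 and 983 with normexp, and 3059 and 3828 without a floor. Genes of the 5 pathway lists at least 2-fold lower in IMQ against Ctrl numbered 2, or 1 with the 75th percentile and 4 without normalization or with spike-in scaling. In IMQ+DMD against IMQ they numbered 1, or 2 with the 75th percentile, and in IMQ+DMD against Ctrl 2, or 4 with each of the 3 scalings. Brightness over background limits IL12A and IL12B, which gave no level.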
